A study of Mus musculus with 23 samples.

Results

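The 10 genes described here handle stored fat in the cell and control the lipases that release it: Angptl4, Creb3l3, Plin2, Plin3, Plin5, Cidec, Pnpla2, Lipe, Mgll and G0s2. They were chosen by name, with earlier results of these data known, and were matched to the array annotation by Entrez number. Each is represented by its brightest probe set over the 23 arrays. All 10 were found among the 18820 genes with a value, and only Lipe had more than 1 probe set. RNA came from scrapings of the colon mucosa of male mice that were 7 to 9 weeks old when the diets began, hybridised to 1 Affymetrix whole-transcript array per mouse and all arrays on a single plate. The groups were PPARα KO mice on a heme diet (n = 6), PPARα KO mice on the control diet (n = 6), WT mice on the heme diet (n = 6) and WT mice on the control diet (n = 5, after the study had dropped 1 array for its quality). Both diets were high in fat (40% of energy) and low in calcium (30 µmol per g) and were fed for 14 days, and the heme diet held an additional 0.5 µmol heme per g. KO mice were 129S4/SvJae-Pparatm1Gonz/J, whose Ppara gene is disrupted in every cell, and WT mice were 129S1/SvImJ, so that genotype and substrain cannot be told apart. Scrapings came from the proximal and distal colon after the mesenteric fat had been taken off, and were pooled per mouse.

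Cells keep surplus fatty acids as triglyceride in lipid droplets, whose surface is coated by perilipins and whose growth is helped by Cidec. Lipolysis runs in steps: Pnpla2 (adipose triglyceride lipase) takes the first fatty acid off triglyceride, Lipe (hormone-sensitive lipase) acts on diglyceride, Mgll (monoglyceride lipase) splits monoglyceride, and G0s2 inhibits Pnpla2. Angptl4 is a secreted inhibitor of lipoprotein lipase, which frees fatty acids from circulating lipoproteins. Creb3l3 encodes CREB-H, a membrane-bound transcription factor that liver and intestine use to regulate lipoprotein and lipid genes. Several of these genes are known targets of the fatty acid receptors of the PPAR family. The comparisons asked whether heme feeding changed their expression in the colon, and whether this differed in mice that lack a functional PPARα.

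Ppara had a mean linear signal of 200.03 ± 31.5 in KO heme mice (SD, n = 6) and 310 ± 46.5 in KO control mice (SD, n = 6), against 415 ± 43.9 in WT heme mice (SD, n = 6) and 495 ± 50.9 in WT control mice (SD, n = 5). All KO arrays lay below all WT arrays on the same diet, but whether its probes lie in the disrupted exon was not determined. The arrays correlated with the other arrays of their group at a mean r of 0.991 to 0.996, and the lowest of these was KO heme replicate 1. That array also had the lowest colon epithelium signal of its group (mean log2 over 12 marker genes 11.71, against 11.81 to 11.90 in the other KO heme arrays) and the highest macrophage signal (7.60, against 6.75 to 7.37, over 10 marker genes). Results for the KO heme group are therefore given with and without it where it matters. The 12 epithelial genes were bright in all arrays, with a summed signal of 56384 to 63262. The scrapings also held non-epithelial tissue. Of 13 measured smooth muscle genes, 1 was called lower on heme in KO mice and 9 in WT mice (calls as defined below). Of all genes 9.20% were called lower in KO mice and 8.29% in WT mice. The summed signal of the 13 smooth muscle genes was 2995 to 5234 in KO heme arrays, 3085 to 7927 in KO control arrays, 3303 to 5063 in WT heme arrays and 5663 to 16052 in WT control arrays. WT control replicates 1 and 2 had 12875 and 16052, while the other WT control arrays had 5663 to 6868. The part of this tissue in the results below was not tested beyond the covariate fits given there. In such bulk samples, fewer cells of a type and less RNA per cell cannot be told apart.

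Heme increased most of the 10 genes in both genotypes, and none of them was called lower. A gene was called when limma gave it an adjusted p (Benjamini-Hochberg over 18820 genes) under 0.01 and its mean linear signal exceeded 20 in 1 or more of the compared groups. In KO mice 6 of the 10 genes were called higher on heme and 0 lower, where 9.23% of all genes were called higher and 9.20% lower. In WT mice 7 were called higher and 0 lower, where 9.60% of all genes were called higher and 8.29% lower. For 6 genes every heme array lay above every control array, in KO mice and likewise in WT mice, which was so for 7.30% of all genes in KO mice and 8.21% in WT mice. The median log2 fold change of the 10 genes was 0.42 in KO mice and 0.32 in WT mice, against -0.01 over all genes in each genotype. Since the genes were chosen with earlier results of these data known, these counts and medians are descriptive. The array-by-array plot and the plot of heme effects show these values.

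**Figure D1:**
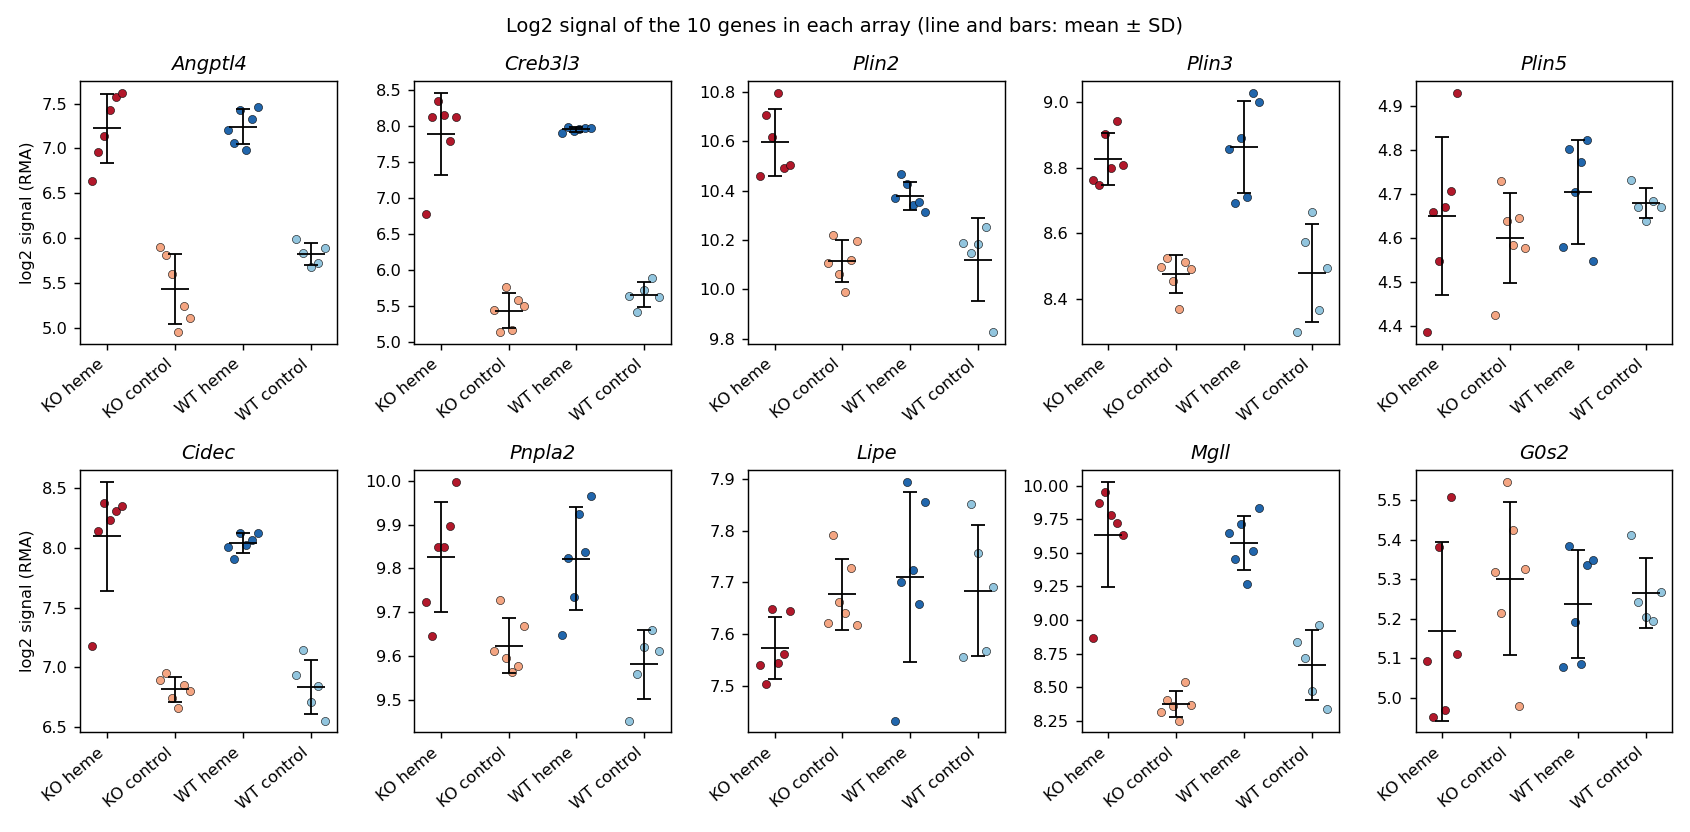
Log2 signal (RMA) of each of the 10 genes on the vertical axis, with 1 point per array and the 4 groups on the horizontal axis, and the group mean ± SD as lines. Heme arrays lie above control arrays of the same genotype for Angptl4, Creb3l3, Plin2, Plin3, Cidec and Mgll, whereas Plin5, Lipe and G0s2 overlap, and KO heme replicate 1 is the lowest heme array for Angptl4, Creb3l3, Cidec and Mgll.

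**Figure D2:**
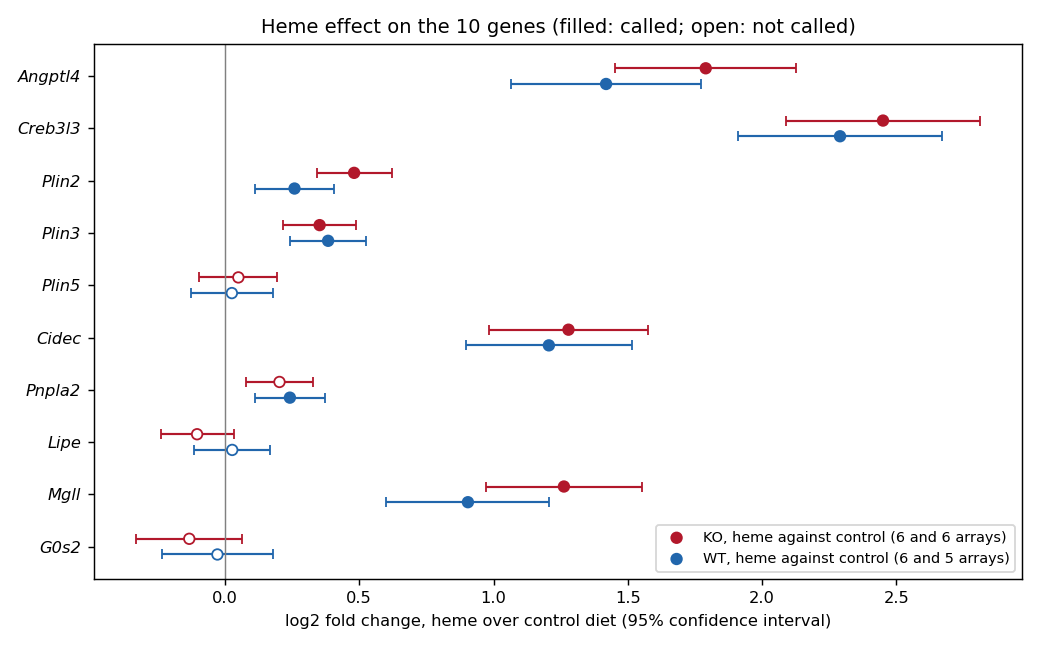
Log2 fold change between heme and control diet on the horizontal axis, with its 95% confidence interval from limma, for each of the 10 genes in KO mice (upper symbol of each pair) and WT mice (lower symbol). The largest effects are those of Creb3l3 (2.45 in KO and 2.29 in WT mice) and Angptl4 (1.79 and 1.42), and the intervals of Plin5, Lipe and G0s2 include 0 in both genotypes.

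Angptl4, the lipoprotein lipase inhibitor, rose 3.46-fold on heme in KO mice and 2.67-fold in WT mice. In KO heme mice its signal was 99.3 to 197 with a median of 157, and in KO control mice it was 31.0 to 59.7 with a median of 43.1. WT heme mice had a signal of 126 to 176, with a median of 154, and the 5 WT control mice had 63.4, 57.2, 51.3, 52.7 and 59.3. No heme array overlapped with a control array, also across the genotypes. On the log2 scale the change was 1.79 (SE 0.163, limma adjusted p = 4.16e-08) in KO mice and 1.42 (SE 0.171, adjusted p = 2.60e-06) in WT mice, and it ranked 27 and 50 from the highest among the 18820 genes. The control arrays differed in spread, with a coefficient of variation of 26.7% in KO control mice and 8.70% in WT control mice.

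Creb3l3 showed the largest change of the 10 genes, with a 5.46-fold rise on heme in KO mice and a 4.89-fold rise in WT mice. Its signal was 110 to 324 with a median of 280 in KO heme mice and 35.4 to 54.4 with a median of 44.6 in KO control mice. In WT heme mice it lay within 239 to 254, with a median of 249, and the 5 WT control mice had 50.1, 42.7, 53.1, 59.3 and 49.5. Every heme array was thus more than a full log2 unit above the control mean of its own genotype. The log2 fold change was 2.45 (SE 0.175, limma adjusted p = 1.10e-09) in KO mice and 2.29 (SE 0.184, adjusted p = 6.67e-09) in WT mice, which ranked 13 and 14 from the highest among 18820 genes. The spread among KO heme mice came mostly from KO heme replicate 1 at 110, since the other 5 arrays had 222 to 324, and without this array the log2 fold change in KO mice was 2.67. The 6 WT heme arrays varied by only 2.23% (coefficient of variation), against 30.4% in the KO heme arrays.

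Among the droplet coat proteins, heme increased Plin2, Plin3 and Cidec, while Plin5 did not pass the test. Plin2 is the perilipin of most non-adipose cells and is held stable by the lipid droplets it covers. Its signal was 1406 to 1778 with a median of 1513 in KO heme mice and 1017 to 1194 with a median of 1107 in KO control mice. WT heme mice had 1273 to 1414 with a median of 1316, and the 5 WT control mice had 1166, 1133, 1164, 1219 and 908. Heme and control arrays did not overlap in either genotype, and 5 of the 6 KO heme arrays lay above every other array. Its log2 fold change was 0.48 (SE 0.0673, limma adjusted p = 1.38e-05) in KO mice and 0.26 (SE 0.0706, adjusted p = 0.00767) in WT mice. The call in WT mice was lost when WT control replicate 1, 2 or 5 or WT heme replicate 1, 2, 3 or 5 was left out (adjusted p = 0.0104 to 0.0305), and without WT control replicate 5, the low array, the log2 fold change was 0.19. It was also lost when the smooth muscle signal was a covariate, where the log2 fold change was 0.34 and the adjusted p 0.0152.

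Plin3 (also known as TIP47), a perilipin that moves from the cytosol to nascent droplets, rose by a similar amount in both genotypes. It had a signal of 430.0 to 492.5 in KO heme mice (median 447) and 330.3 to 368 in KO control mice (median 361). In WT heme mice its signal was 414 to 522 (median 469), and the 5 WT control mice had 315, 381, 406, 330.03 and 360.4. The groups were separate on each diet contrast, although the highest WT control array came within 10 signal units of the lowest WT heme array. The log2 fold change was 0.35 (SE 0.0651, limma adjusted p = 2.62e-04) in KO mice and 0.38 (SE 0.0683, adjusted p = 1.92e-04) in WT mice.

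Cidec, which joins droplets and lets small ones feed larger ones, rose 2.43-fold in KO mice and 2.31-fold in WT mice. Its signal in KO heme mice was 145 to 332 with a median of 309, and in KO control mice 101 to 124 with a median of 114. In WT heme mice it was 240.4 to 279 with a median of 264, and the 5 WT control mice had 122, 141, 104, 115 and 94.1. No heme array overlapped with a control array of its genotype, and KO heme replicate 1, at 145, came closest. On the log2 scale heme changed Cidec by 1.28 (SE 0.143, limma adjusted p = 8.55e-07) in KO mice and 1.21 (SE 0.1496, adjusted p = 3.69e-06) in WT mice. Without KO heme replicate 1 the remaining KO heme arrays had 282 to 332, and the log2 fold change in KO mice was 1.46.

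Plin5, the perilipin of oxidative tissues that ties droplets to mitochondria, was dim in all groups and was called in no comparison. Its signal was 20.9 to 30.5 in KO heme mice and 21.5 to 26.5 in KO control mice, against 23.4 to 28.3 in WT heme mice and 24.9 to 26.6 in WT control mice. These values lie just above the signal of 20 below which a gene was not counted as expressed. Heme changed it by 0.05 log2 units in KO mice (95% confidence interval -0.10 to 0.20) and 0.03 in WT mice (-0.13 to 0.18).

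Of the 3 lipases of the lipolytic cascade, Mgll had by far the largest response to heme. Mgll releases the last fatty acid from glycerol and also breaks down the endocannabinoid 2-arachidonoylglycerol. Its signal was 467 to 992 in KO heme mice (median 860.2) and 305 to 372 in KO control mice (median 329.9). In WT heme mice it was 618 to 911 (median 765), and the 5 WT control mice had 458, 421, 356, 499 and 324. Heme and control arrays were separate in both genotypes, and the lowest heme array of all was KO heme replicate 1, at 467, below the highest WT control array. The log2 fold change was 1.26 (SE 0.140, limma adjusted p = 7.94e-07) in KO mice and 0.90 (SE 0.147, adjusted p = 7.29e-05) in WT mice, which equals 2.40-fold and 1.87-fold. Without KO heme replicate 1 the log2 fold change in KO mice was 1.42.

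Pnpla2, which starts lipolysis, rose slightly in WT mice, whereas its change in KO mice missed the threshold. Its signal was 801 to 1023 in KO heme mice (median 922) and 757 to 848 in KO control mice (median 778). In WT heme mice it was 803 to 1000.01 (median 910.2), and the 5 WT control mice had 701, 754, 787, 809 and 782. The groups overlapped in both genotypes, with 4 of 6 KO heme arrays above all KO control arrays and 5 of 6 WT heme arrays above all WT control arrays. The log2 fold change was 0.20 (SE 0.0599, limma adjusted p = 0.0128) in KO mice and 0.24 (SE 0.0629, adjusted p = 0.00550) in WT mice. This call depended on single arrays. In KO mice the gene passed without KO heme replicate 1 or 2 or WT heme replicate 1 (adjusted p = 0.00404 to 0.00911), and in WT mice it failed without WT control replicate 1 or 2 or WT heme replicate 4, 5 or 6 (adjusted p = 0.0116 to 0.0224). When smooth muscle signal was a covariate, the log2 fold change in WT mice was 0.17 (adjusted p = 0.193).

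Lipe and G0s2 were not called in either genotype. Lipe had a signal of 181 to 201 in KO heme mice (median 188) and 196 to 222 in KO control mice (median 201), against 173 to 238 in WT heme mice (median 209.8) and 188 to 231 in WT control mice (median 207). Its log2 fold change on heme was -0.10 (95% confidence interval -0.24 to 0.03) in KO mice and 0.03 (-0.12 to 0.17) in WT mice. In KO mice 4 of 6 heme arrays lay below all control arrays (two-sided exact permutation test, p = 0.0260, limma adjusted p = 0.2645). A second, dimmer probe set of Lipe had a mean signal of 54.8 ± 3.44 in KO heme mice (SD, n = 6) and 58.4 ± 4.91 in KO control mice (SD, n = 6), against 57.3 ± 4.45 in WT heme mice (SD, n = 6) and 61.7 ± 4.79 in WT control mice (SD, n = 5). G0s2, the Pnpla2 inhibitor, had a signal of 30.9 to 45.5 in KO heme mice and 31.5 to 46.8 in KO control mice, against 33.8 to 41.8 in WT heme mice and 36.6 to 42.6 in WT control mice. Its log2 fold change was -0.13 (95% confidence interval -0.33 to 0.07) in KO mice and -0.03 (-0.24 to 0.18) in WT mice. The intervals of both genes reach no further than 0.33 log2 units from 0 in either direction.

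Promoter sequences are shown for Creb3l3, Cidec, Mgll and Plin2, which rose on heme in both genotypes, and for Plin5 as a droplet coat gene that was not called. For Cidec, Mgll and Plin5, which have 2 start sites each in the table, 1 is shown. RefSeq promoters (GRCm38.p6, 250 bases before to 50 bases after each start site, written 5′ to 3′ on the strand of the gene) were matched for 9 of the 10 genes (all but Angptl4), with 14 start sites in all. The sequence AGGTCA, the core to which PPARs and other nuclear receptors bind, and the cyclic AMP response element TGACGTCA, to which CREB proteins bind, were searched on both strands. Capitals mark AGGTCA or, where it lies on the opposite strand, TGACCT.
Creb3l3, first start site (chr10:81092542-81092841, minus strand): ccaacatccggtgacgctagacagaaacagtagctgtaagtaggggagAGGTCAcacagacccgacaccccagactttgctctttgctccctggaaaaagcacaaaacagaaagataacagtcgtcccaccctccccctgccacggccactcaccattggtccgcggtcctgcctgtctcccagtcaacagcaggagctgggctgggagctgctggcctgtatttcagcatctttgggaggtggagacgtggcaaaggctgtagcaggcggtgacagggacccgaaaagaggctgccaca
Creb3l3, second start site (chr10:81098823-81099122, minus strand): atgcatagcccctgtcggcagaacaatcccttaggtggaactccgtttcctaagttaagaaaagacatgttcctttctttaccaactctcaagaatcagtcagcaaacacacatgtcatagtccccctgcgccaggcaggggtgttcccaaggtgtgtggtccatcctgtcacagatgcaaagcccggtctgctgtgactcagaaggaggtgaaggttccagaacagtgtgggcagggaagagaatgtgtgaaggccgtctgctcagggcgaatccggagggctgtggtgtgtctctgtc
Plin2 (chr4:86670010-86670309, minus strand): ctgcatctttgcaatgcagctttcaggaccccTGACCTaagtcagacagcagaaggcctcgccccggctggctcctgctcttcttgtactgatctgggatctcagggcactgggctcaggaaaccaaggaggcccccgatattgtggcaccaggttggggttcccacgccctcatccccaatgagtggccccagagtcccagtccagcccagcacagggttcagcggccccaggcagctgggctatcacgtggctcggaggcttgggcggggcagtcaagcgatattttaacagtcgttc
Cidec (chr6:113435711-113436010, minus strand): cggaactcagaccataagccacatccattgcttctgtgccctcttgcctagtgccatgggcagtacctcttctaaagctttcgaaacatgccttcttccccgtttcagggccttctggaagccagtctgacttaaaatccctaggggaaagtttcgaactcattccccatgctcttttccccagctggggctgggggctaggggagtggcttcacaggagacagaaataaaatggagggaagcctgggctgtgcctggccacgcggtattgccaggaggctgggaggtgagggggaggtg
Mgll (chr6:88724162-88724461, plus strand): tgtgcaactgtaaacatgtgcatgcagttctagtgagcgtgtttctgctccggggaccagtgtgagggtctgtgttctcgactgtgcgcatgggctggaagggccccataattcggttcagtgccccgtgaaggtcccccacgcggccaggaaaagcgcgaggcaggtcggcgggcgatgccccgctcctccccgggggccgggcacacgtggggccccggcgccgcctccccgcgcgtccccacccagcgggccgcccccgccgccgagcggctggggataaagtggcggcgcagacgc
Plin5 (chr17:56117499-56117798, minus strand): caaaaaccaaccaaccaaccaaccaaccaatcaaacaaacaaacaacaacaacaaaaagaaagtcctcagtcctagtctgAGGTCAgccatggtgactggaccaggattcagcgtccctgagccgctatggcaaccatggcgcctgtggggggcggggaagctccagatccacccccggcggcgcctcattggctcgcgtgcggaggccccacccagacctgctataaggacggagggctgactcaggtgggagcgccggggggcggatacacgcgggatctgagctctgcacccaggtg

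AGGTCA was present in 1 of the 2 Creb3l3 promoters, from position -202 relative to the start site, in the Plin2 promoter (from -218) and in both Plin5 promoters, from -170 in the sequence shown. It was absent from the promoters of Cidec, Mgll, Plin3, Pnpla2, Lipe and G0s2 in this window. Of all 32851 promoters in the table, 16.3% hold this motif. The PPAR-type direct repeat (DR1), in which AGGTCA occurs 2 times with any base between, matched 0 of the 14 promoters and 0.0396% of all promoters. TGACGTCA was likewise in 0 of the 14, against 1.79% of all promoters. These matches are to letters in a 300-base window and carry no information on binding.

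No difference between the genotypes was called for any of the 10 genes. On the heme diet, limma called 0 of 10 between KO and WT mice, where 0.234% of all genes were called in either direction, and 2 of the 10 had an unadjusted p under 0.05, against 12.2% of all genes. On the control diet 0 of 10 were called, with 0.0531% of all genes called, and 1 had an unadjusted p under 0.05, against 5.74% of all genes. The difference of the heme effects (KO minus WT) was called for 0 of 10, with 0.0106% of all genes called, and again 1 had an unadjusted p under 0.05, against 6.75% of all genes. Without KO heme replicate 1, 0 of 10 were called as well. The difference then was 0.51 (SE 0.145) for Mgll, 0.488 (SE 0.216) for Angptl4 and 0.381 (SE 0.144) for Creb3l3. It was 0.256 (SE 0.112) for Cidec, 0.25 (SE 0.0978) for Plin2 and 0.0767 (SE 0.0924) for Plin5. Lipe, G0s2, Plin3 and Pnpla2 had -0.124, -0.0898, -0.0184 and -0.0183. The ordinary two-way model without moderated variances called 0 of 10 in each of these comparisons as well. A p above the threshold does not show that the genotypes were alike, and the confidence intervals give what the data allow.

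**Figure D3:**
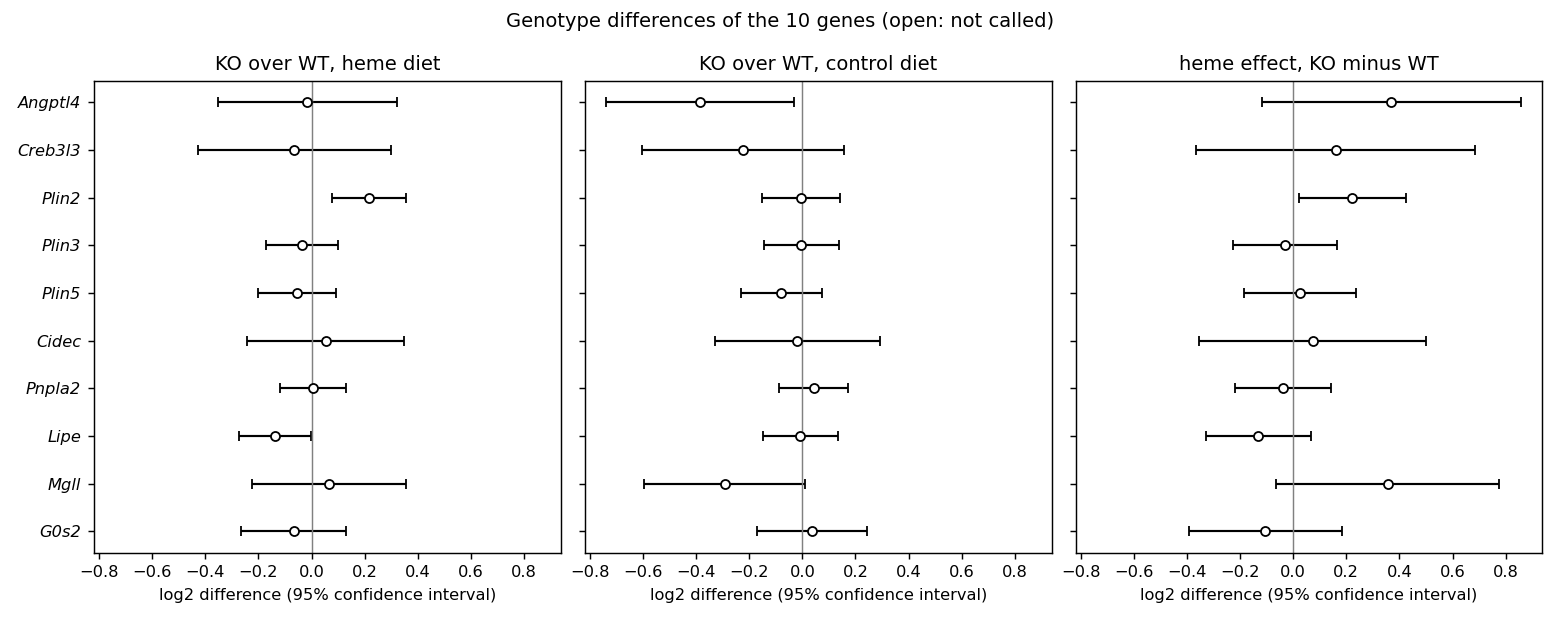
Log2 difference of KO over WT on the heme diet (left), KO over WT on the control diet (middle) and of the heme effects, KO minus WT (right), each with its 95% confidence interval from limma, for the 10 genes. No difference was called. The intervals that exclude 0 are those of Plin2 and Lipe on the heme diet, Angptl4 on the control diet and Plin2 for the difference of the heme effects.

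For Angptl4 and Creb3l3 the levels on heme were close in the 2 genotypes. The log2 difference of KO over WT mice on the heme diet was -0.02 (95% confidence interval -0.35 to 0.32) for Angptl4 and -0.06 (-0.43 to 0.30) for Creb3l3. Without KO heme replicate 1 the difference for Creb3l3 was 0.16. On the control diet Angptl4 had a log2 difference of -0.39 (-0.74 to -0.03, unadjusted p = 0.0338, limma adjusted p = 0.824), and 4 of 6 KO control arrays lay below all 5 WT control arrays (two-sided exact permutation test, p = 0.0779). The log2 heme effect of Angptl4 in KO mice exceeded that in WT mice by 0.37 (-0.12 to 0.86, adjusted p = 0.812). Mgll had a difference close to this (0.36), and exceeded Angptl4 without KO heme replicate 1 (0.51 against 0.488).

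On the heme diet, Plin2 had the smallest p of the 10 genes between KO and WT mice. Of the 6 KO heme arrays 5 lay above all WT heme arrays, the log2 difference was 0.22 (95% confidence interval 0.08 to 0.36), and a two-sided exact permutation test gave p = 0.00433 with 6 arrays per group, but the limma adjusted p was 0.146. On the control diet the Plin2 signal was 1017 to 1194 in KO mice and 908 to 1219 in WT mice, a log2 difference of -0.0042 (-0.15 to 0.14). The heme effects differed by 0.22 (0.02 to 0.42, unadjusted p = 0.0326, adjusted p = 0.698). Without WT control replicate 5 this difference was 0.30 (adjusted p = 0.411).

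Mgll, Cidec and Plin3 did not pass in any genotype comparison. On the control diet Mgll had a signal of 305 to 372 in KO mice and 324 to 499 in WT mice, with a log2 difference of -0.29 (95% confidence interval -0.60 to 0.01, two-sided exact permutation test, p = 0.0433, limma adjusted p = 0.890). On heme the difference was 0.06 (-0.22 to 0.35), and 0.218 (SE 0.103, adjusted p = 0.353) without KO heme replicate 1. The heme effects differed by 0.36 (-0.06 to 0.78, adjusted p = 0.787). Without KO heme replicate 1 the difference of the heme effects was 0.51, with an SE of 0.145 and an adjusted p of 0.322. For Cidec the log2 difference of KO over WT was 0.05 (-0.24 to 0.35) on heme and -0.02 (-0.33 to 0.29) on control diet, with 5 KO heme arrays above all WT heme arrays and KO heme replicate 1 below all of them. For Plin3 it was -0.04 (-0.17 to 0.10) on heme and -0.0045 (-0.15 to 0.14) on control diet. Lipe on heme had a log2 difference of -0.14 (-0.27 to -0.0021, unadjusted p = 0.0468, adjusted p = 0.402).

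Some of the 10 genes departed from their group means together in single mice, and leaving out KO heme replicate 1 lowered most of the highest correlations. Deviations from the group means were correlated over the 23 arrays, as a description of arrays that share a plate and a normalisation. Of the 45 pairs among the 10 genes, 5 had a correlation above 0.5. These were Cidec with Mgll (r = 0.812), Creb3l3 with Mgll (0.719), Creb3l3 with Cidec (0.685), Angptl4 with Cidec (0.615) and Plin2 with Mgll (0.536). Angptl4 and Creb3l3, the genes with the largest heme effects, had 0.338. Without KO heme replicate 1, 1 of the 45 pairs remained above 0.5, namely Cidec with Mgll (r = 0.504, 22 arrays), while Plin2 with Mgll had 0.490, Angptl4 with Cidec 0.440, Creb3l3 with Mgll 0.250 and Creb3l3 with Cidec -0.203. Angptl4 with Creb3l3 then had -0.168. KO heme replicate 1 was not low for every heme-induced gene: of the 1738 genes called higher on heme in KO mice, it was the lowest KO heme array for 35.4%, and KO heme replicate 3 for 28.1%. The map of deviations shows the pattern by array.

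**Figure D4:**
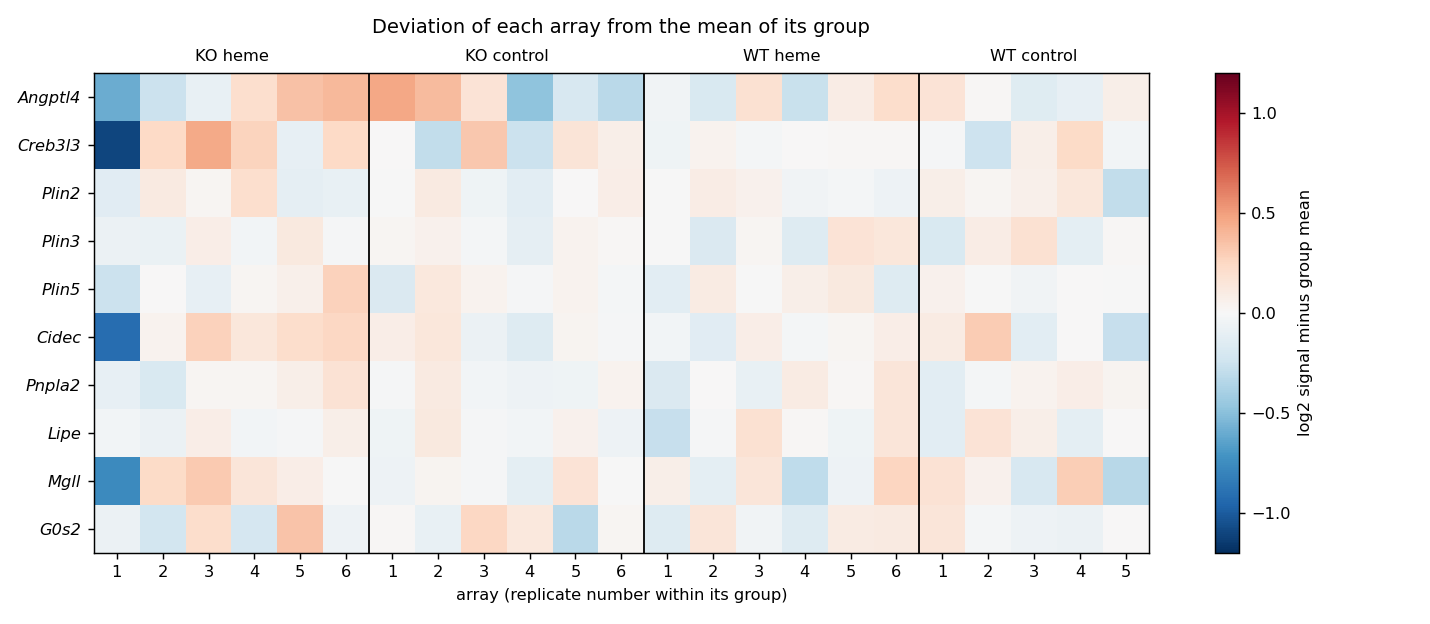
Log2 signal of each array minus the mean of its group (colour scale, blue for below and red for above), with the 10 genes as rows and the 23 arrays as columns, by group. The darkest cells are those of KO heme replicate 1 for Creb3l3, Cidec, Mgll and Angptl4, whereas the same array is near its group mean for Plin2, Plin3, Pnpla2, Lipe and G0s2.

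The genes called on heme among the other genes of the droplet surface and of droplet growth were all higher. Of 18 such genes listed, 17 were measured, and heme raised 6 in KO mice and 3 in WT mice, with 0 lowered in either. These counts, and those of the 3 lists that follow, stand against the 9.23% of all genes called higher and 9.20% lower in KO mice, and 9.60% higher and 8.29% lower in WT mice. Their median log2 fold change was 0.03 in KO mice and 0.05 in WT mice, against -0.01 over all genes in each genotype. Hilpda, a hypoxia-inducible droplet protein that inhibits Pnpla2, had a mean signal of 82.2 in KO heme mice and 40.9 in KO control mice (log2 fold change 0.96, limma adjusted p = 2.96e-05), and 52.6 in WT heme mice and 39.0 in WT control mice (0.41, adjusted p = 0.0460). The difference between these effects was not called (0.55, adjusted p = 0.621). Dgat2, which makes triglyceride, had log2 fold changes of 0.57 in KO mice (adjusted p = 2.40e-04) and 0.31 in WT mice (adjusted p = 0.0351), and Dgat1, which catalyses the same step, had 0.32 and 0.34 and was called in both. Vcp, an ATPase that pulls proteins from membranes, rose by 0.47 in KO mice and 0.43 in WT mice. The adipocyte perilipins Plin1 and Plin4 had mean signals of 37.6 and 50.2 in KO heme mice and were not called in either genotype. Plin4 had 53.0 in WT heme mice and 73.7 in WT control mice (log2 fold change -0.43, limma adjusted p = 0.0404), and its change in KO mice was -0.22 (adjusted p = 0.307). Tmem159, also of this list, came close to a lower call in WT mice (-0.24, adjusted p = 0.0101), with -0.12 in KO mice (adjusted p = 0.195).

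**Figure D5:**
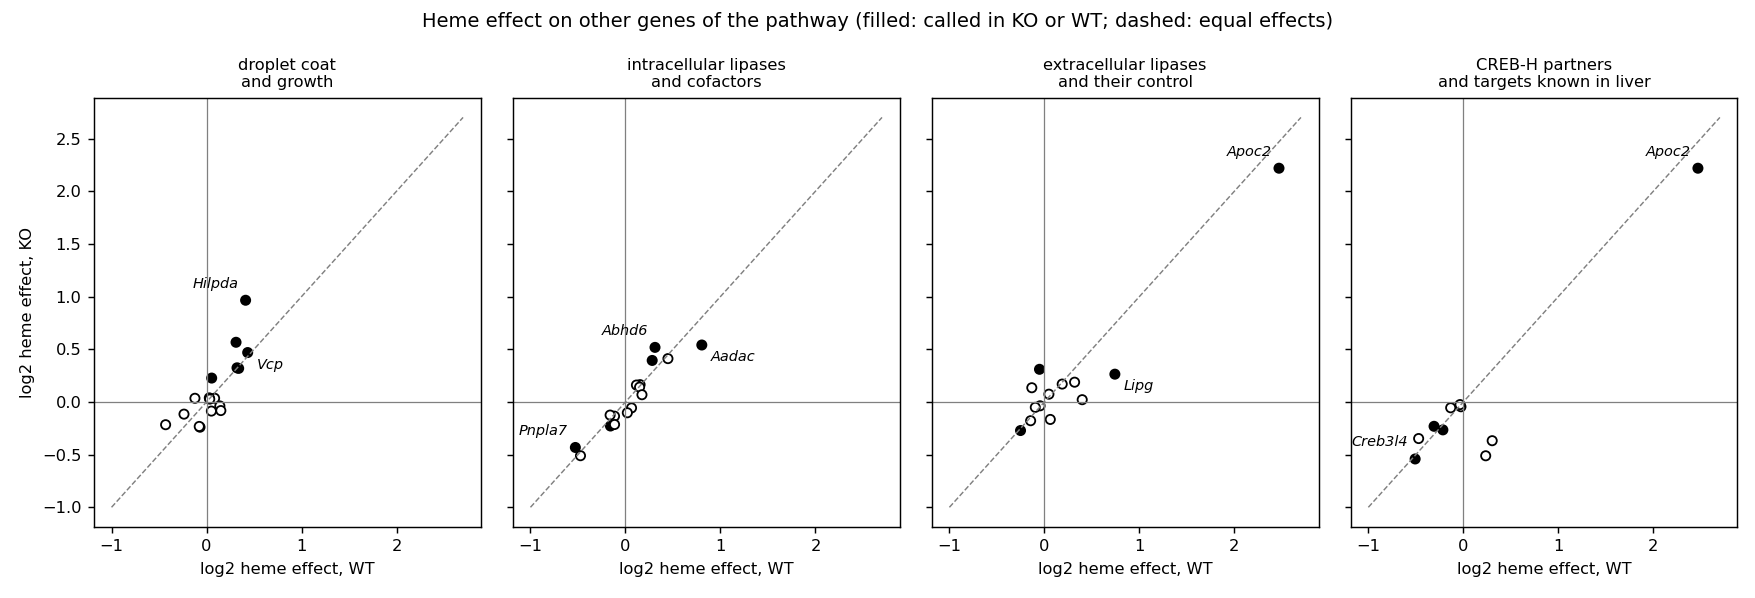
Log2 heme effect in KO mice (vertical axis) against that in WT mice (horizontal axis) for the measured genes of 4 lists around the 10 genes, with filled points for genes called in either genotype and a dashed line where both effects are equal. Apoc2 stands far above the rest (2.22 in KO and 2.47 in WT mice), and all other points lie within 1 log2 unit of 0. It is a member of both right-hand lists.

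Of 17 other intracellular lipases and cofactors listed, 16 were measured, with 2 higher and 2 lower on heme in KO mice, and 3 higher and 1 lower in WT mice, and a median log2 fold change of 0.0057 in KO mice and 0.09 in WT mice. Abhd6, which like Mgll hydrolyses monoglyceride, had a mean signal of 1693 in KO heme mice and 1177 in KO control mice, against 1509 in WT heme mice and 1222 in WT control mice (log2 fold changes 0.52 and 0.31, called in both). Lipa, the acid lipase of lysosomes, rose by 0.39 in KO mice and 0.28 in WT mice. Pnpla7, a lysophospholipase related to Pnpla2, fell by 0.43 on the log2 scale in KO mice (adjusted p = 4.39e-04) and by 0.53 in WT mice (adjusted p = 9.94e-05). Aadac, a membrane-bound esterase, had a log2 fold change of 0.80 in WT mice (adjusted p = 0.00142) and of 0.54 in KO mice (adjusted p = 0.0181). Abhd5, the activator of Pnpla2, was not called, with 0.16 and 0.15.

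Among the extracellular lipases and the genes that control them, as Angptl4 does, heme had its largest effect on Apoc2. Of 15 listed genes 13 were measured, and 2 were higher and 1 was lower on heme in each genotype, with a median log2 fold change of 0.07 in KO mice and 0.05 in WT mice. Apoc2, the activator of lipoprotein lipase, had a mean signal of 1340 in KO heme mice and 282 in KO control mice, against 1385 in WT heme mice and 251 in WT control mice, with log2 fold changes of 2.22 (SE 0.173) and 2.47 (SE 0.182). Lpl, lipoprotein lipase itself, had 154 in KO heme mice and 147 in KO control mice, and 185 in WT heme mice and 141 in WT control mice, and was not called (adjusted p = 0.935 in KO and 0.0351 in WT mice). Lipg, endothelial lipase, was called in WT mice (log2 fold change 0.74, adjusted p = 0.00135) and not in KO mice (0.26, adjusted p = 0.225), while Gpihbp1, which carries lipoprotein lipase on capillaries, was called in KO mice (0.31, adjusted p = 0.00402) and not in WT mice (-0.05). Neither difference between genotypes was called (adjusted p = 0.727 for Lipg and 0.531 for Gpihbp1). Lmf1, needed to fold these lipases, fell by 0.27 in KO mice and by 0.25 in WT mice.

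Of 12 genes listed as CREB-H partners or as its targets in mouse liver, 10 were measured, with 1 higher and 3 lower on heme in each genotype and a median log2 fold change of -0.25 in KO mice and -0.08 in WT mice. The higher gene was Apoc2, which stands in both lists. The lower genes were Creb3l4 and Creb3l1, relatives of Creb3l3, with log2 fold changes of -0.54 and -0.23 in KO mice and -0.51 and -0.31 in WT mice, and Mbtps1, the protease that releases these factors from the membrane, with -0.27 in KO mice and -0.22 in WT mice. Fgf21 and Hamp, targets of CREB-H in liver, had mean signals of 21.7 and 15.4 in KO heme mice. Fgf21 was not called, and Hamp, below 20 in every group, could not be called. Apoa4, another such target, had a log2 fold change of -0.37 in KO mice (adjusted p = 0.315) and of 0.30 in WT mice (adjusted p = 0.453).

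Over the 23 arrays, the genes whose log2 signal was most like that of Angptl4 were Ndufb6 (Pearson r = 0.968), Acadl (0.960), Cpt2 (0.959), Dlat (0.955) and Fam162a (0.953). Acadl and Cpt2 act in mitochondrial fatty acid oxidation, Dlat belongs to pyruvate dehydrogenase and Ndufb6 to respiratory complex I. For Creb3l3 they were Me1 (0.986), Acadl (0.983), Apoc2 (0.981), Akr1b8 (0.979) and Cbr3 (0.979), where Me1 is malic enzyme and Akr1b8 and Cbr3 reduce carbonyl compounds. These arrays share their diets, so that any gene moved by heme scores high. Within groups, on the deviations from group means, the correlations were 0.549 to 0.797 for the genes named with Angptl4 and 0.609 to 0.788 for those named with Creb3l3. Without KO heme replicate 1 they were 0.384 to 0.822 and 0.327 to 0.619, and among the 5 named genes Ndufb6 was the closest to Angptl4 both with and without this array.

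Because Cidec, Lipe and G0s2 are abundant in fat cells, adipocyte markers were set beside the 10 genes. Of 12 listed adipocyte genes 10 were measured and 0 were called in any of the 5 comparisons. On heme, 9.23% of all genes were called higher and 9.20% lower in KO mice, and 9.60% higher and 8.29% lower in WT mice. The 10 adipocyte genes had a median log2 fold change on heme of -0.21 in KO mice and -0.16 in WT mice. Over all genes it was -0.01 in each genotype. The summed signal of the 10 adipocyte genes was 608 to 892 in KO heme arrays and 613 to 1035 in KO control arrays. It was 464 to 1002 in WT heme arrays and 639 to 1282 in WT control arrays. Adiponectin (Adipoq) had a mean signal of 25.8 in KO heme mice, 31.2 in KO control mice, 29.4 in WT heme mice and 33.1 in WT control mice. Leptin (Lep) and Cidea had a mean signal below 20 in every group, so that they could not be called. Thrsp exceeded 20 only in WT control mice (20.6), so that only comparisons with that group could call it. Fabp4 is a brighter gene of the list that endothelial cells also express. It had 195 in KO heme mice, 156 in KO control mice, 147 in WT heme mice and 152 in WT control mice. Its log2 fold change on heme was 0.33 in KO mice (limma adjusted p = 0.128), the highest of the list there, and -0.04 in WT mice. Deviations of Lipe and of Cidec from their group means correlated with those of the adipocyte list at r = 0.509 and 0.408 over the 23 arrays, and at 0.505 and 0.572 without KO heme replicate 1. Cidec correlated with the colon epithelium list at 0.553 and with the smooth muscle list at 0.116, and without that array at 0.02 and 0.625. For Lipe these values were 0.134 and 0.183, and without that array 0.111 and 0.204. The part of fat cells in the levels of these genes was not tested further. With the adipocyte signal of each array as a covariate, 6 of the 10 genes were called higher on heme in KO mice, where 7.79% of all genes were, and 7 in WT mice, where 8.07% were. With smooth muscle as the covariate 6 were called in KO mice (7.84% of all genes) and 5 in WT mice (3.86%). With the colon epithelium signal, an alternative added after seeing the data, 6 were called in KO mice (7.48%) and 5 in WT mice (6.25%). Of the 12 epithelial genes, 3 were called higher and 3 lower on heme in KO mice (9.23% and 9.20% of all genes). In WT mice 2 were called higher and 2 lower (9.60% and 8.29%). This fit thus cannot separate tissue content from a heme response of the listed genes themselves. Plin2 and Pnpla2 lost their call in WT mice in both the smooth muscle and the epithelium fit. The log2 fold change of Plin2 in WT mice was 0.345 with smooth muscle and 0.264 with epithelium as the covariate, neither below the 0.26 without one, and that of Pnpla2 was 0.165 and 0.167, against 0.24 without one.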

How the data were processed

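Processing concerned log2 values of 23 colon arrays (100 ng RNA each, Affymetrix Mouse Gene 1.1 ST), which the authors had normalised by RMA before the table was deposited. The version of RMA is not given in the labels or methods used. The study's methods name reorganised probe sets, whereas the table carries Affymetrix transcript cluster numbers. Of 35556 probe sets, 21218 had 1 gene symbol, 1881 several and 12457 none; the brightest probe set per gene gave 18820 genes. Linear signal is 2 to the power of the log2 value. No read depth exists for arrays, and their number limits the precision.

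A limma model (version 3.58.1, R 4.3.3) with 4 group means and moderated variances gave the heme effect in KO and WT mice, the KO effect under either diet, and KO minus WT of the heme effect. Adjusted p-values cover all genes. Exact permutation tests were two-sided (scipy 1.17.1). The smallest p they allow is 0.00216 for 6 against 6 arrays and 0.00433 for 6 against 5. The mice were housed individually and the labels name no litter, so p-values measure only the spread between these mice. Of the steps, only the limma fit was tested on simulated data, for the heme effect in WT mice. Members and gene lists were chosen with earlier results of these data known. Named genes were the members, at most 4 called genes per list by size and the 5 genes most like Angptl4 and Creb3l3. Adipoq and Lep were named as defining adipocyte markers. Plin1, Plin4, Tmem159, Abhd5, Lpl, Fgf21, Hamp, Apoa4, Fabp4, Cidea and Thrsp were named in addition, after their values had been seen.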

Additional observations from a re-analysis of the deposited data

Results flagged for a closer look

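In 4 of the 40 groups of arrays examined (10 genes in 4 groups), 1 array stood apart from the others by Dixon's criterion on the log2 values, which chance alone meets in about 1 in 20 groups. In 3 of them it was KO heme replicate 1. Its Creb3l3 signal was 110.2 where the other 5 KO heme arrays had 222 to 324.5, its Cidec signal was 145 where the others had 281.8 to 331.8, and its Mgll signal was 467.4 where the others had 792 to 991.9. The same array had the lowest colon epithelium signal and the highest macrophage and smooth muscle signal among the KO heme arrays. Their part in these low values was not tested. Without it the heme effect in KO mice was 2.67 for Creb3l3 (SE 0.102, limma adjusted p = 5.04e-14), 1.46 for Cidec (SE 0.0795, adjusted p = 2.72e-11) and 1.42 for Mgll (SE 0.103, adjusted p = 1.49e-09) on the log2 scale. The fourth value was the Plin2 signal of 908.4 in WT control replicate 5, where the other 4 WT control arrays had 1133 to 1219. The gap to the nearest array, as a share of the group's range of log2 values, was 0.649 for Creb3l3, 0.802 for Cidec, 0.701 for Mgll and 0.75 for Plin2. On the linear signals the Creb3l3 and Mgll gaps would not pass the criterion of 0.625 (0.522 and 0.619).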

How the results depend on the processing

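Results were computed under 36 other settings, 23 of which left out 1 array, except the difference of the heme effects, which had 35 since it cannot be had from only the 2 groups compared. Of the 10 genes, 6 or 7 were called higher on heme in KO mice and 5 to 7 in WT mice. Over the same settings, 1390 to 2485 of all tested genes were called higher in KO mice and 727 to 2614 in WT mice. In the 3 genotype comparisons 0 of the 10 were called under every setting that was run for them. Of all genes at most 148 were called there, between KO and WT mice on heme at an adjusted p under 0.05. None of the 13 heme effects that were called changed sign. The labels do not say what the replicate numbers stand for. Between groups, deviations of same-numbered arrays had a median r of 0.0695, with 11 of 33 pairs over 0.1. For differently numbered arrays it was 0.00115, with 38 of 165 pairs over 0.1. With the replicate block 7 of the 10 genes were called in KO mice, Pnpla2 included (0.203, limma adjusted p = 0.00657), and 7 in WT mice. Of all 18820 genes, 1750 were then called higher in KO mice and 1747 in WT mice. Plin2 and Pnpla2 in WT mice lost their calls when only the compared groups were fitted (adjusted p = 0.0190 and 0.0156). Plin2 also lost it on linear signal (0.0132) and with the epithelium covariate (adjusted p = 0.0281, log2 fold change 0.264), and Pnpla2 with centred arrays (0.0130) and the epithelium covariate (adjusted p = 0.0897, log2 fold change 0.167). The causes were not tested.

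The values that changed sign were all uncalled. For heme in WT mice these were Plin5 (-0.00492 with the smooth muscle and -0.0317 with the epithelium covariate), Lipe (-0.0400 with the mean of its probe sets) and G0s2 (0.00132 with centred arrays). For KO against WT mice on heme they were Angptl4 (1.49 signal units on the linear scale), Creb3l3 (0.0423 with array weights, 2.37 signal units on the linear scale) and Pnpla2 (-0.00387 with array weights, -0.00192 with smooth muscle, -0.00300 with epithelium). On the control diet they were Plin2 (0.0142 with array weights, 0.000934 with the replicate block, 0.0506 with smooth muscle), Plin3 (0.0273 with array weights), Cidec (0.0286 with smooth muscle), Pnpla2 (-0.00546 with smooth muscle) and Lipe (0.0140 with array weights, 0.0249 with smooth muscle). The difference of the heme effects changed sign for Pnpla2 (0.00355 with smooth muscle).

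Leaving out 1 array at a time gave, for KO against WT mice on heme, -0.0947 to 0.102 for Angptl4, -0.155 to 0.157 for Creb3l3, -0.00171 to 0.237 for Cidec and -0.0302 to 0.041 for Pnpla2. On the control diet it gave -0.0773 to 0.029 for Plin2, -0.0498 to 0.0422 for Plin3, -0.0894 to 0.0575 for Cidec, -0.0394 to 0.0346 for Lipe and -0.0124 to 0.101 for G0s2. For the heme effect it gave -0.0058 to 0.102 for Plin5 in KO mice, and -0.00976 to 0.0828 for Lipe and -0.0575 to 0.00899 for G0s2 in WT mice. For the difference of the heme effects it gave -0.0783 to 0.0136 for Plin3, -0.0315 to 0.0767 for Plin5 and -0.00379 to 0.256 for Cidec.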
